A study of Mus musculus with 8 samples.

Results

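The genes described here are 9 of the 54446 gene rows of the count tables: the 3 chains of complement C1q (C1qa, C1qb and C1qc), the macrophage receptors Mrc1 and Marco, the carbonic anhydrase gene Car4, and the lipid-handling genes Lpl, Fabp4 and Apoe. They were chosen by name, as C1q chains and as genes that mark lung macrophages or are expressed in them, with earlier results of these data known. All 9 had a row and all 9 passed the filter on low counts, which kept 11828 genes. The libraries were made by CEL-Seq, which reads the 3' ends of transcripts, from RNA of eosinophils sorted in a study of a mouse asthma model. By their titles the C57BL/6 samples were SiglecFhi/CD101+ eosinophils (n = 2, replicates 1 and 2), Siglec-Fint/CD101- eosinophils (n = 2, replicates 1 and 2) and resident eosinophils (n = 4, replicates 3 to 6). Siglec-F is a lectin for sialic acids on eosinophils and alveolar macrophages, and CD101 is a surface protein of the immunoglobulin superfamily. The labels name no treatment, genotype, age, sex or animal for any group, so p-values speak only of how far these libraries differ among themselves, a spread that may be technical.

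C1q is the recognition molecule that starts the classical complement pathway. It is assembled from A, B and C chains, which are encoded by neighbouring genes and need one another to form the secreted protein. Most C1q is made by macrophages and dendritic cells rather than by the liver, and interstitial macrophages of the lung express its genes strongly. Alveolar macrophages, which clear surfactant, are known for lipid-handling genes and for scavenger receptors, and they carry Siglec-F themselves. Eosinophils are not a textbook source of C1q.

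The C1q genes stood next to each other on the minus strand of chromosome 4 in the GENCODE M21 annotation of mouse build GRCm38. C1qa is at chr4:136895917-136898803, C1qc at chr4:136889804-136893065 and C1qb at chr4:136880129-136886187, and the 18675 bases that hold them contain no other annotated gene, so 3 genes in all. Because C1qb and its neighbour C1qc differed in their values and Mrc1 shared the low values of C1qc in 1 group, the bases upstream of these 3 genes and of Marco are shown. They are RefSeq windows (build GRCm38.p6) that end at the RefSeq transcription start, written 5′ to 3′ on the strand of the gene, and bases that GENCODE places inside the gene were left out, which leaves 99 bases for C1qc and 228 for Mrc1. They are C1qb, chr4:136886201-136886450, minus strand; C1qc, chr4:136893066-136893164, minus strand; Mrc1, chr2:14229164-14229391, plus strand; and Marco, chr1:120505025-120505274, minus strand. Capitals mark matches, on either strand, to the core GAGGAA of sites of PU.1, a transcription factor of macrophages and other myeloid cells, and to the half-site TGCTGA bound by MAF factors.
C1qb: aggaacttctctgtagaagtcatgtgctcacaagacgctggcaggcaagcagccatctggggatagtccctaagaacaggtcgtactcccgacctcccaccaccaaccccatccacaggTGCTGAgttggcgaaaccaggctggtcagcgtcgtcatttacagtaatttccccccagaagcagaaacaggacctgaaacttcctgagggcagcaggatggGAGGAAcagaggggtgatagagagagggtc
C1qc: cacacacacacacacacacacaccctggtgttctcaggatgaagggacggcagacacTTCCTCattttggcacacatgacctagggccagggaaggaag
Mrc1: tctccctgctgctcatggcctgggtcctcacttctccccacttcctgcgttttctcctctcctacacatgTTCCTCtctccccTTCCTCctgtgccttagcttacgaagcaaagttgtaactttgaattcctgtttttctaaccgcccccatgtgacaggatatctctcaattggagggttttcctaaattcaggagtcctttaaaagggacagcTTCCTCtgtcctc
Marco: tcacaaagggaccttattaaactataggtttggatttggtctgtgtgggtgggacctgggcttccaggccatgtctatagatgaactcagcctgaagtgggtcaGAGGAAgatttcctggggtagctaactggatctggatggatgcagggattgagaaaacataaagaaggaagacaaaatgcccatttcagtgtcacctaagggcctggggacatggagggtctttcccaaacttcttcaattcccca

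GAGGAA was found in 1 place upstream of C1qb (30 bases before the RefSeq start), 1 of C1qc (193 bases, on the opposite strand), 3 of Mrc1 (180, 167 and 35 bases, on the opposite strand) and 1 of Marco (146 bases), and also in 2 of the 3 windows of Apoe (250 and 132 bases). It occurred in 23.3% of the 32851 RefSeq windows of 250 bases, so a match is common. TGCTGA, found in 16.1% of windows, was matched once, 131 bases before the C1qb start. The AP-1 site TGANTCA, found in 6.75% of windows, was not matched in any member's window, and the TATA motif TATAAA, found in 12.4%, was matched in 1 of the 3 windows of Apoe, where the matches on the 2 strands overlap. RefSeq windows were held for 6 of the 9 members, and C1qa, Lpl and Fabp4 are named only. These matches are descriptions of letters and not of bound sites.

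Values are given as counts and as CPM, counts relative to the library total after TMM scaling. Total counts were 1513517 to 3109428 in SiglecFhi/CD101+ libraries, 1517159 to 2990294 in Siglec-Fint/CD101- libraries and 5600610 to 11583550 in resident libraries. Genes of the mitochondrial genome took 70.6% to 82.2%, 69.9% to 83.9% and 38.6% to 61.8% of the counts of these libraries in the same order, so that 444902 to 552121 counts of each subset library and 2137819 to 5296468 of each resident library fell on other genes. A count of 3, used as the floor of detection, equalled 1.59 and 1.83 CPM in SiglecFhi/CD101+ libraries, 2.18 and 1.86 CPM in Siglec-Fint/CD101- libraries and 0.199 to 0.501 CPM in resident libraries. The 2 libraries of each subset were less alike than the resident libraries were: Spearman's rho over genes was 0.41 for the SiglecFhi/CD101+ pair, 0.43 for the Siglec-Fint/CD101- pair and 0.70 to 0.78 among resident libraries. Between groups it was 0.38 to 0.40 for the 2 subsets, 0.42 to 0.48 for SiglecFhi/CD101+ with resident and 0.49 to 0.55 for Siglec-Fint/CD101- with resident libraries. So libraries of a subset were no more like each other than like resident libraries. The part of depth in these values was not tested. The median tested gene had a log2 fold change of -0.72 in SiglecFhi/CD101+ against resident libraries and of -0.997 in Siglec-Fint/CD101- against resident libraries, and these medians ranged from -1.46 to -0.26 and from -1.96 to -0.63 under the other scalings tried.

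Eosinophil genes were unevenly counted. The 14 genes of the eosinophil list summed to 149 and 457 CPM in SiglecFhi/CD101+, 169 and 325 CPM in Siglec-Fint/CD101- and 205 to 515 CPM in resident libraries, and 7, 5 to 9 and 3 to 6 of them had no count in a library of these groups. Of the 10 tested, none passed in edgeR, and DESeq2 called 2 higher and 1 lower in SiglecFhi/CD101+ and 2 lower in Siglec-Fint/CD101- than in resident libraries. Over all tested genes, DESeq2 called 2.64% higher and 5.03% lower in SiglecFhi/CD101+, and 0.854% higher and 4.67% lower in Siglec-Fint/CD101-. Prg2, the gene of major basic protein, was at 38.7 and 235 CPM in SiglecFhi/CD101+, 0.727 and 1.86 CPM in Siglec-Fint/CD101- and 4.95 to 15.9 CPM in resident libraries. Epx, the eosinophil peroxidase gene, had no count in the subset libraries and 25 counts in resident replicate 5 alone. Il5ra, the receptor chain for IL-5, had no count in the subset libraries and 58 in resident libraries, 57 of them in replicate 6. Siglecf was at 10.1 and 26.8 CPM in SiglecFhi/CD101+ libraries, had no count in the 2 libraries labelled Siglec-Fint/CD101-, and was at 4.28 to 43.9 CPM in resident libraries. The part that cells other than eosinophils had in the values below was not tested.

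C1qc, the C chain, was nearly missing from SiglecFhi/CD101+ libraries while it was well counted in every other library. It had 7 and 3 counts in SiglecFhi/CD101+ libraries, 256 and 148 in Siglec-Fint/CD101- libraries, and 203, 2531, 1139 and 2090 in resident replicates 3, 4, 5 and 6. As CPM these were 3.71 and 1.83 in SiglecFhi/CD101+ libraries, 186 and 91.9 in Siglec-Fint/CD101- libraries, and 33.9, 199, 79.9 and 139 in resident libraries. Both SiglecFhi/CD101+ libraries lay below all 6 other libraries, and the Siglec-Fint/CD101- values lay within the resident range. The mean was 2.77 ± 1.33 CPM in SiglecFhi/CD101+ (SD, n = 2), 139 ± 66.6 CPM in Siglec-Fint/CD101- (n = 2) and 113 ± 71.7 CPM in resident libraries (n = 4).

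C1qc had a log2 fold change of -5.33 ± 1.02 (SE) in SiglecFhi/CD101+ against resident libraries, with an edgeR quasi-likelihood adjusted p of 0.0886. Against Siglec-Fint/CD101- libraries it was -5.63 ± 1.07, with an edgeR adjusted p of 0.106. From the summed counts, C1qc was 43.8-fold lower in SiglecFhi/CD101+ libraries than in the resident ones (exact 95% interval 23.8 to 91.4, counting error only) and 47.7-fold lower than in Siglec-Fint/CD101- libraries (25.7 to 100.2). Neither difference passed the adjusted threshold of 0.05 over all 11828 genes in edgeR, where the unadjusted p were 9.73e-05 and 8.99e-05. In DESeq2 both passed, with adjusted p of 7.42e-05 and 6.58e-05, and in limma-voom neither did, with adjusted p of 0.318 and 0.765. In a bulk library, fewer cells of a type and less RNA per cell cannot be told apart.

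C1qb, the B chain, did not share this pattern. It had 155 and 234 counts in SiglecFhi/CD101+ libraries, 602 and 130 in Siglec-Fint/CD101- libraries and 793, 2708, 803 and 3503 in resident libraries. As CPM these were 82.2 and 143 in SiglecFhi/CD101+, 438 and 80.7 in the Siglec-Fint/CD101- pair, and 133, 213, 56.3 and 233 in resident libraries. The SiglecFhi/CD101+ values lay inside the resident range, and Siglec-Fint/CD101- replicate 1 was the highest of all 8 libraries. Group means were 112 ± 42.8 CPM in SiglecFhi/CD101+, 259 ± 252 CPM in Siglec-Fint/CD101- and 159 ± 80.9 CPM in resident libraries, and the values of the groups overlapped in every comparison. Its log2 fold change was -0.50 (95% interval -1.88 to 0.89) for SiglecFhi/CD101+ and 0.71 (-0.62 to 2.03) for Siglec-Fint/CD101- against resident libraries. Intervals of log2 fold changes, here and below, use the SE and a normal quantile. They are approximate and narrower than the quasi-likelihood test would give.

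C1qa, the A chain, was low and uneven. It had 89 and 10 counts in SiglecFhi/CD101+ libraries, 34 and 19 in Siglec-Fint/CD101- libraries and 57, 374, 123 and 512 in resident libraries. The CPM were 47.2 and 6.10 in SiglecFhi/CD101+, 24.7 and 11.8 in the Siglec-Fint/CD101- pair, and 9.53, 29.4, 8.62 and 34.0 in resident libraries. The highest and the lowest of the 8 values were the 2 SiglecFhi/CD101+ libraries, 7.74-fold apart, so the groups overlapped fully. Against resident libraries the log2 fold change was 0.39 ± 1.17 (SE) for SiglecFhi/CD101+ and -0.16 ± 1.20 for Siglec-Fint/CD101- libraries, with edgeR adjusted p of 0.904 and 0.960. The sign of the first rested on replicate 1 of SiglecFhi/CD101+, without which it was -1.83, and it was -0.56 with library totals alone. The second was 0.23 with RLE scaling and 0.12 with upper-quartile scaling.

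Taken as shares of the C1q counts of a library, the chains had a different make-up in SiglecFhi/CD101+ libraries. C1qc made up 2.79% (exact 95% interval 1.13% to 5.66%) and 1.21% (0.251% to 3.51%) of the 251 and 247 C1q counts in SiglecFhi/CD101+ libraries. It made up 28.7% and 49.8% of the 892 and 297 C1q counts in Siglec-Fint/CD101- libraries, and 19.3%, 45.1%, 55.2% and 34.2% of the 1053, 5613, 2065 and 6105 C1q counts in resident libraries. The intervals, Clopper-Pearson and for counting error only, do not reach from the SiglecFhi/CD101+ libraries to the lowest of the others, which was 16.9% to 21.8% in resident replicate 3. The C1qa share was 35.5% and 4.05% in SiglecFhi/CD101+, 3.81% and 6.40% in the Siglec-Fint/CD101- pair, and 5.41% to 8.39% in resident libraries, so SiglecFhi/CD101+ replicate 1 alone stood out. This share was computed after the counts had been seen and carries no test, and an exact permutation test of 2 against 4 libraries could not give less than 0.0667. Counts near transcript ends are not scaled by length, so the shares do not give the ratio of the chains in the cell. The summed C1q level was 133 and 151 CPM in SiglecFhi/CD101+, 649 and 184 CPM in the Siglec-Fint/CD101- pair, and 145 to 441 CPM in resident libraries.

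**Figure D1:**
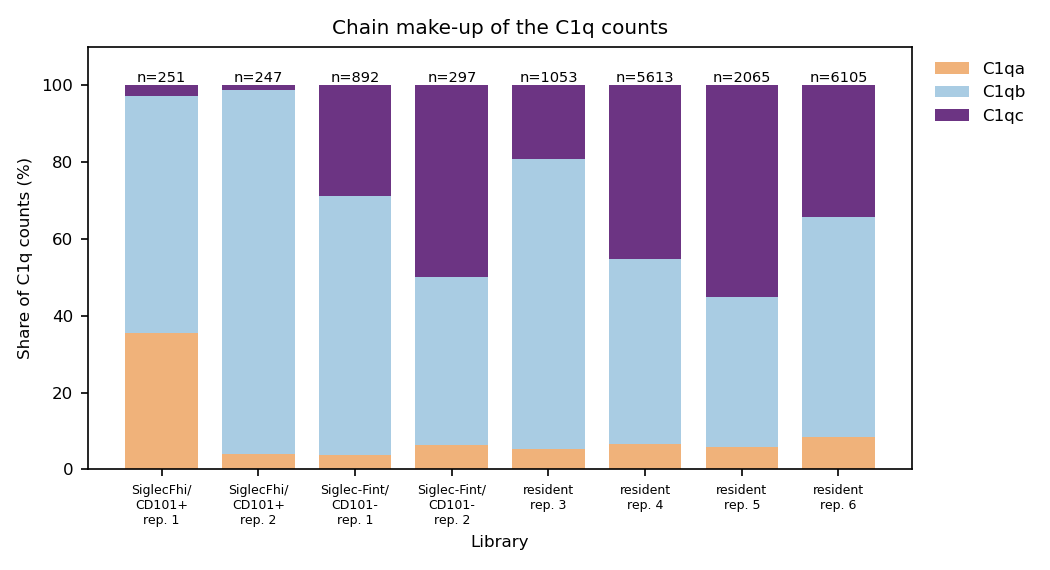
Share of each library's C1q counts (percent, stacked bars) taken by C1qa, C1qb and C1qc, with the number of C1q counts above each bar. The C1qc share is 2.79% and 1.21% in the SiglecFhi/CD101+ libraries and 19.3% to 55.2% in the other 6 libraries.

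Mrc1 encodes the mannose receptor CD206, an endocytic lectin of macrophages, and lies at chr2:14229392-14332057. It had 2 and 1 counts in SiglecFhi/CD101+ libraries, 33 and 30 in Siglec-Fint/CD101- libraries and 286, 595, 281 and 584 in resident libraries. The CPM were 1.06 and 0.610 in SiglecFhi/CD101+, 24.0 and 18.6 in the Siglec-Fint/CD101- pair, and 47.8, 46.8, 19.7 and 38.8 in resident libraries. The SiglecFhi/CD101+ values were under the floor of 3 counts and below every other library, while Siglec-Fint/CD101- replicate 1 overlapped resident replicate 5. From low to high the group means were SiglecFhi/CD101+ (0.835 ± 0.319 CPM, SD, n = 2), Siglec-Fint/CD101- (21.3 ± 3.79, n = 2) and resident (38.3 ± 13, n = 4). The log2 fold change was -5.48 ± 1.41 (SE, edgeR adjusted p 0.130) for SiglecFhi/CD101+ and -0.84 ± 1.04 (adjusted p 0.696) for Siglec-Fint/CD101- against resident libraries, and -4.63 ± 1.42 (adjusted p 0.239) for SiglecFhi/CD101+ against Siglec-Fint/CD101-. From the 3 counts of SiglecFhi/CD101+ libraries, Mrc1 was 42.7-fold lower than in resident libraries (exact 95% interval 14.6 to 207.5) and 24.8-fold lower than in Siglec-Fint/CD101- libraries (8.11 to 123). DESeq2 gave adjusted p of 0.000404 and 0.00395 for these differences, and limma-voom 0.288 and 0.770.

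Marco, a scavenger receptor that binds bacteria and particles and is known from alveolar macrophages, lies at chr1:120474538-120505024. It had 0 and 22 counts in SiglecFhi/CD101+ libraries, 0 and 2 in Siglec-Fint/CD101- libraries and 34, 254, 294 and 105 in resident libraries. The CPM were 0 and 13.4 in SiglecFhi/CD101+, 0 and 1.24 in the Siglec-Fint/CD101- pair, and 5.68, 19.97, 20.6 and 6.98 in resident libraries. Every Siglec-Fint/CD101- value was below every resident value, and the SiglecFhi/CD101+ libraries fell on either side of the lowest resident values. Against resident libraries it had a log2 fold change of -4.34 ± 2.23 (SE) for Siglec-Fint/CD101-, with an edgeR adjusted p of 0.338, and -0.99 ± 1.75 for SiglecFhi/CD101+, with an adjusted p of 0.817. In summed counts Marco was 21.4-fold lower in Siglec-Fint/CD101- than in resident libraries, with an exact 95% interval of 5.89 to 177. Of 14 other scavenger and lectin receptor genes, 11 were tested and none passed in edgeR. At an unadjusted edgeR p under 0.05, 3 were lower in each subset than in resident libraries. Genes lower at that level made up 13.1% of all tested genes in SiglecFhi/CD101+ and 13.8% in Siglec-Fint/CD101-. DESeq2 called 0 and 1 of the 11 lower, beside 5.03% and 4.67% of all tested genes. The median log2 fold change of the 11 was -1.92 for SiglecFhi/CD101+ and -1.46 for Siglec-Fint/CD101-, beside -0.72 and -0.997 over all tested genes.

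**Figure D2:**
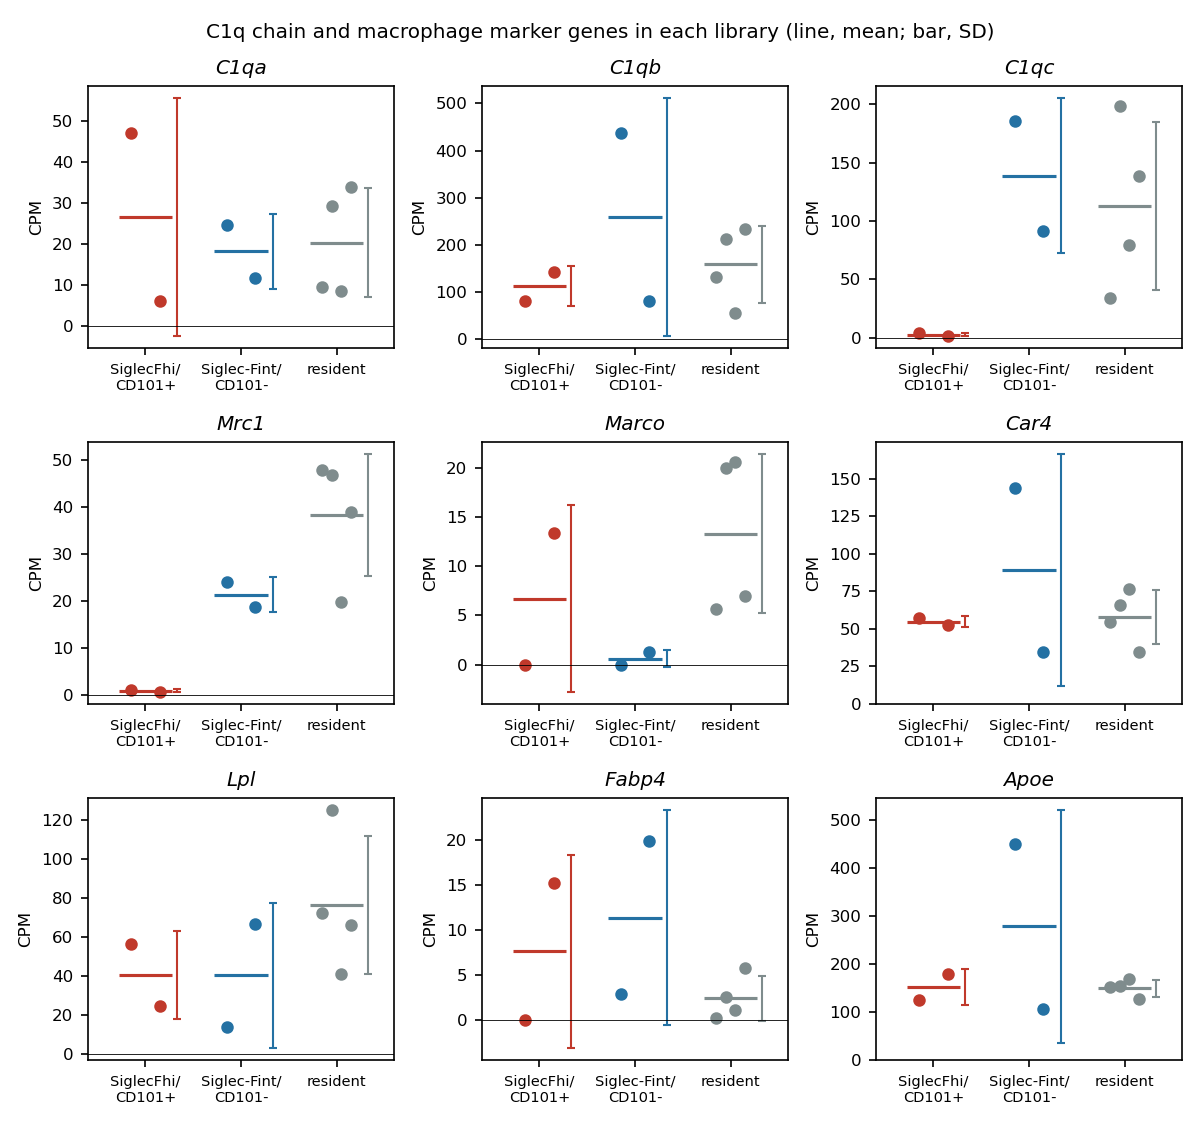
CPM of each of the 9 genes (vertical axes, one scale per panel) in each library (points) of the SiglecFhi/CD101+, Siglec-Fint/CD101- and resident groups, with the mean (line) and SD (bar). C1qc and Mrc1 are at or below 3.71 CPM in both SiglecFhi/CD101+ libraries, whereas Apoe and Car4 overlap in all groups.

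Car4 encodes carbonic anhydrase IV, a membrane-anchored enzyme found on lung capillary endothelium, and lies at chr11:84957786-84966044. It was at 57.3 and 52.4 CPM in SiglecFhi/CD101+, 144 and 34.8 CPM in the Siglec-Fint/CD101- pair, and 54.5, 65.8, 76.8 and 34.3 CPM in resident libraries. The counts were 108 and 86 in SiglecFhi/CD101+, 198 and 56 in the Siglec-Fint/CD101- pair, and 326 to 1095 in resident libraries. The SiglecFhi/CD101+ libraries were in the middle of the resident range, and Siglec-Fint/CD101- replicate 1 was above all others. The log2 fold change was -0.08 (95% interval -1.56 to 1.41) for SiglecFhi/CD101+ and 0.63 (-0.83 to 2.08) for Siglec-Fint/CD101- against resident libraries, with edgeR adjusted p of 0.975 and 0.682. The sign of the first turned with the scaling, at 0.38 with RLE factors, and the second was -0.11 with library totals alone. Of 15 other carbonic anhydrase genes, 6 were tested and none passed in edgeR. In SiglecFhi/CD101+ against resident libraries 1 was higher at an unadjusted edgeR p under 0.05, beside 3.65% of all tested genes. DESeq2 also called it higher, beside 2.64% of all tested genes. For Siglec-Fint/CD101- against resident libraries both counts were 0.

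Apoe encodes apolipoprotein E, a lipid carrier secreted by macrophages, and lies at chr7:19696109-19699188. It was the steadiest member among resident libraries, at 151, 154, 168 and 126 CPM, a 1.34-fold range, where the median tested gene with no library at 0 ranged 3.81-fold. It was at 125 and 178 CPM in SiglecFhi/CD101+ and 450 and 107 CPM in Siglec-Fint/CD101- libraries. The means were 151 ± 37.8 CPM in SiglecFhi/CD101+, 278 ± 243 CPM in Siglec-Fint/CD101- and 150 ± 17.5 CPM in resident libraries. The log2 fold change was 0.02 (95% interval -1.10 to 1.13) for SiglecFhi/CD101+ and 0.89 (-0.19 to 1.98) for Siglec-Fint/CD101- against resident libraries, with edgeR adjusted p of 0.994 and 0.401. The second rested on Siglec-Fint/CD101- replicate 1, without which it was -0.54, and the first was -0.60 with library totals alone.

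Lpl encodes lipoprotein lipase, which frees fatty acids from triglyceride-rich lipoproteins, and lies at chr8:68880491-68907448. Its counts were 106 and 40 in SiglecFhi/CD101+, 19 and 107 in the Siglec-Fint/CD101- pair, and 433, 1589, 582 and 994 in resident libraries. The CPM were 56.2 and 24.4 in SiglecFhi/CD101+, 13.8 and 66.4 in the Siglec-Fint/CD101- pair, and 72.4, 125, 40.8 and 66.1 in resident libraries. In each subset 1 library lay below the resident range and 1 inside it. Set against resident libraries, its log2 fold change was -0.92 ± 0.87 (SE) in both subsets, with edgeR adjusted p of 0.609 for SiglecFhi/CD101+ and 0.591 for Siglec-Fint/CD101-.

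Fabp4, a fatty acid-binding protein gene of adipocytes, capillary endothelium and some macrophages, lies at chr3:10204088-10208576 and was the least counted member. It had 0 and 25 counts in SiglecFhi/CD101+, 4 and 32 in the Siglec-Fint/CD101- pair, and 1, 32, 15 and 87 in resident libraries. The CPM were 0 and 15.2 in SiglecFhi/CD101+, 2.91 and 19.9 in the Siglec-Fint/CD101- pair, and 0.167, 2.52, 1.05 and 5.79 in resident libraries. Replicate 2 of each subset was above all resident libraries and the other subset libraries were inside the resident range or below it. The log2 fold change against resident libraries was 1.66 ± 1.75 (SE) for SiglecFhi/CD101+ and 2.24 ± 1.74 for Siglec-Fint/CD101-, with edgeR adjusted p of 0.655 and 0.499.

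Across the 9 members, edgeR called 0 in any of the 3 comparisons. It called 3 of 11828 genes (0.0254%) for SiglecFhi/CD101+ against resident, 7 (0.0592%) for Siglec-Fint/CD101- against resident and 1 (0.00845%) for SiglecFhi/CD101+ against Siglec-Fint/CD101-. At an unadjusted edgeR p under 0.05 the members C1qc and Mrc1 lay lower in SiglecFhi/CD101+ libraries compared with resident ones, where 13.1% of all tested genes were lower at that level, and no member passed for Siglec-Fint/CD101- against resident, where 13.8% were lower and 1.90% higher. Against Siglec-Fint/CD101- libraries the same 2 members were lower in SiglecFhi/CD101+ libraries, against 7.96% of all tested genes. DESeq2 called the same 2 members lower at an adjusted p under 0.05 in both comparisons of SiglecFhi/CD101+, where it called 5.03% and 4.71% of all genes lower, and no member for Siglec-Fint/CD101- against resident, where it called 5.52% of genes in either direction. limma-voom called 0 members in the 3 comparisons, beside 0.0169%, 0.0169% and 0.0% of all genes.

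Groups did not overlap for 2 of 9 members in SiglecFhi/CD101+ against resident libraries (both lower, against 27.4% of all tested genes). They did not overlap for 1 of 9, Marco, in Siglec-Fint/CD101- against resident libraries (lower, against 29.3%), nor for 2 of 9 in SiglecFhi/CD101+ against Siglec-Fint/CD101- libraries (both lower, against 11.9%). The first of these shares was near the background and the second was below it. By size of the unadjusted edgeR p, C1qc was gene 13 of 11828 for SiglecFhi/CD101+ against resident and gene 9 against Siglec-Fint/CD101-, and Mrc1 was gene 131 and gene 256. The members' median log2 fold change was -0.50 for SiglecFhi/CD101+ against resident, 0.30 for Siglec-Fint/CD101- against resident and -0.70 for SiglecFhi/CD101+ against Siglec-Fint/CD101-, beside medians over all tested genes of -0.72, -0.997 and 0. The comparisons share libraries, so their values are not independent of each other.

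**Figure D3:**
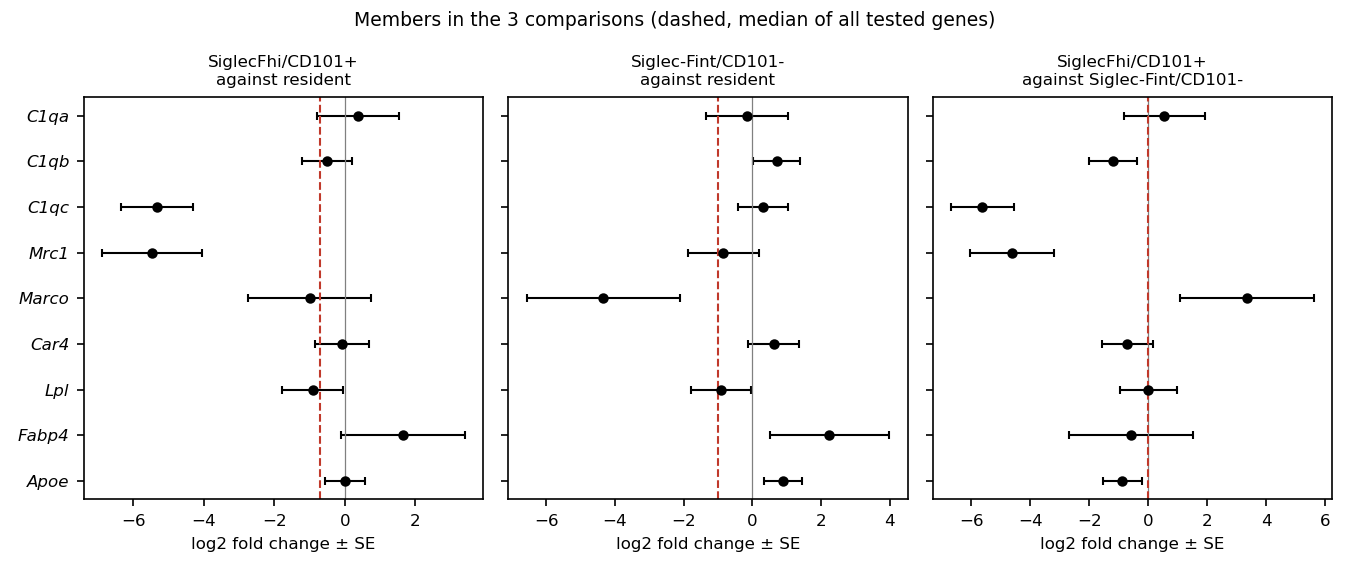
Log2 fold change of the 9 genes (points, bars ± SE, edgeR) for SiglecFhi/CD101+ against resident, Siglec-Fint/CD101- against resident and SiglecFhi/CD101+ against Siglec-Fint/CD101-, with the median of all tested genes dashed. C1qc (-5.33 and -5.63) and Mrc1 (-5.48 and -4.63) lie far left in both comparisons of SiglecFhi/CD101+, and Marco (-4.34) in that of Siglec-Fint/CD101- against resident.

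Profiles of the members over the 8 libraries were compared by the root mean square difference of their centred log2(CPM + 1) values, among 5769 tested genes of at least median level. Car4 and Apoe were the closest pair of members, at 0.27, and Scand1 was the gene most like each of them, at 0.16 and 0.21. C1qc and Mrc1 differed by 0.98, less than C1qa and C1qb did, at 1.04. The genes most like the mean profile of the C1q chains were Skap2 (0.36), Psap (0.41) and Sod2 (0.42). For C1qc they were Commd4 (0.49), Ptger4 (0.54) and Ndufs1 (0.57), and for Mrc1 they were Aph1c (0.24), Batf (0.30) and Acox3 (0.31). These are descriptions over 8 libraries of unequal depth.

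Among other complement genes, C3 had values above the resident range in both subsets. Of 15 complement genes with a row (proteases, substrates and regulators of the pathway), 11 were tested and none passed in edgeR in any comparison. At an unadjusted edgeR p under 0.05, 1 was higher and 3 lower in SiglecFhi/CD101+ and 1 higher and 0 lower in Siglec-Fint/CD101- than in resident libraries. Of all tested genes, 3.65% were higher and 13.1% lower at that level in SiglecFhi/CD101+, and 1.90% higher and 13.8% lower in Siglec-Fint/CD101-. At an adjusted p under 0.05, DESeq2 called C3 higher (adjusted p 1.21e-05) and Cr1l, a complement regulator gene, lower (0.0276) in SiglecFhi/CD101+, and C3 higher (0.00613) in Siglec-Fint/CD101- than in resident libraries. It called 2.64% of all genes higher and 5.03% lower in SiglecFhi/CD101+, and 0.854% higher and 4.67% lower in Siglec-Fint/CD101-. The median log2 fold change was -0.93 for SiglecFhi/CD101+ and -0.03 for Siglec-Fint/CD101- against resident libraries, beside -0.72 and -0.997 over all genes. C3, the central complement component, was at 204 and 134 CPM in SiglecFhi/CD101+, 96.7 and 93.8 CPM in the Siglec-Fint/CD101- pair, and 15.7, 16.6, 34.8 and 21.3 CPM in resident libraries, so all 4 subset values were above all resident values. Its log2 fold change against resident libraries was 2.93 ± 0.64 (SE) for SiglecFhi/CD101+ and 2.11 ± 0.64 for Siglec-Fint/CD101-, with edgeR adjusted p of 0.11 and 0.288. The first passed in edgeR without a filter (adjusted p 0.0270) and without Siglec-Fint/CD101- replicate 1 (0.0463) or 2 (0.0476). Non-overlapping higher values were found in 6.78% and 4.46% of all tested genes. Cfp, the gene of properdin, which stabilises the alternative pathway convertase, was at 1.06 and 24.4 CPM in SiglecFhi/CD101+, 112 and 94.4 CPM in the Siglec-Fint/CD101- pair, and 37.5 to 106 CPM in resident libraries. Its log2 fold change was -2.50 for SiglecFhi/CD101+ and 0.52 for Siglec-Fint/CD101- against resident libraries, and neither passed.

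Of 12 genes reported to encode receptors for C1q or for C3 fragments, 9 were tested and none passed in edgeR in any comparison. In each subset 2 were lower than in resident libraries at an unadjusted edgeR p under 0.05. At that level 13.1% of all tested genes were lower in SiglecFhi/CD101+ and 13.8% in Siglec-Fint/CD101-. DESeq2 called 0 of the 9. Their median log2 fold change was -1.24 for SiglecFhi/CD101+ and -1.17 for Siglec-Fint/CD101- against resident libraries, where all tested genes had -0.72 and -0.997. Itgb2, the shared beta chain of complement receptors 3 and 4, was at 39.2 and 109 CPM in SiglecFhi/CD101+, 113 and 222 CPM in the Siglec-Fint/CD101- pair, and 235 to 531 CPM in resident libraries. It had a log2 fold change of -2.35 ± 0.60 (SE) for SiglecFhi/CD101+ against resident, with an edgeR adjusted p of 0.130. Itgax, the alpha chain CD11c, was at 2.65 and 30.5 CPM in SiglecFhi/CD101+, 2.91 and 116 CPM in the Siglec-Fint/CD101- pair, and 91.0 to 347 CPM in resident libraries. Itgam, the gene of CD11b, another alpha chain that pairs with the Itgb2 chain, had no count in any library. Why it had none was not tested.

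Of 18 pan-macrophage genes, 16 were tested and none passed in edgeR. In each subset 6 lay wholly below the resident libraries, beside 27.4% of all tested genes in SiglecFhi/CD101+ and 29.3% in Siglec-Fint/CD101-. At an unadjusted edgeR p under 0.05, 5 were lower in SiglecFhi/CD101+ and 3 in Siglec-Fint/CD101- than in resident libraries, beside 13.1% and 13.8% of all tested genes. DESeq2 called Cd14 (adjusted p 0.0248) and Cd68 (0.00757) lower in SiglecFhi/CD101+ and 0 in Siglec-Fint/CD101-, and limma-voom called 0. In these comparisons DESeq2 called 5.03% and 4.67% of all tested genes lower. The pan-macrophage median log2 fold change was -1.50 for SiglecFhi/CD101+ and -0.80 for Siglec-Fint/CD101- against resident libraries, where all tested genes had -0.72 and -0.997. Csf1r, the receptor for colony-stimulating factor 1, was at 14.3 and 0.610 CPM in SiglecFhi/CD101+, 16.0 and 11.8 CPM in the Siglec-Fint/CD101- pair, and 36.2 to 141 CPM in resident libraries. Cd68, a lysosomal glycoprotein gene, was at 1.59 and 7.32 CPM in SiglecFhi/CD101+, 8.0 and 17.4 CPM in the Siglec-Fint/CD101- pair, and 31.2 to 78.2 CPM in resident libraries. Spi1, which encodes PU.1, was at 51.4 and 154 CPM in SiglecFhi/CD101+, 257 and 188 CPM in the Siglec-Fint/CD101- pair, and 184 to 440 CPM in resident libraries. The summed level of the list was 1447 to 1600 CPM in SiglecFhi/CD101+, 1786 to 2161 CPM in Siglec-Fint/CD101- and 2116 to 3492 CPM in resident libraries.

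Alveolar macrophage markers other than the members gave 1 call in edgeR, while DESeq2 called 1 higher and 3 lower in SiglecFhi/CD101+ and 2 higher and 2 lower in Siglec-Fint/CD101- against resident libraries, and limma-voom 0. DESeq2 called 2.64% of all tested genes higher and 5.03% lower in SiglecFhi/CD101+, and 0.854% higher and 4.67% lower in Siglec-Fint/CD101-. At an unadjusted edgeR p under 0.05, 1 marker was higher and 7 lower in SiglecFhi/CD101+, and 2 higher and 3 lower in Siglec-Fint/CD101-. The shares of all tested genes were 3.65% and 13.1%, and 1.90% and 13.8%, in that order. Of 22 genes, 20 were tested, with a median log2 fold change of -2.63 for SiglecFhi/CD101+ and -1.19 for Siglec-Fint/CD101- against resident libraries. With genes of no count set at their bound these medians were -1.90 and -1.19, and those over all tested genes were -0.72 and -0.997. Wholly below the resident libraries lay 11 in SiglecFhi/CD101+ (27.4% of all tested genes did) and 10 in Siglec-Fint/CD101- (29.3%). Cidec, a lipid droplet gene, had no count in SiglecFhi/CD101+, 2 counts in Siglec-Fint/CD101- replicate 1, and 63 to 212 counts in resident libraries, so it was at least 14.2-fold lower in SiglecFhi/CD101+ libraries when set against 3 counts over that group (DESeq2 adjusted p 0.0149). Slc7a2, an arginine transporter gene, had no count in either subset and 69 to 198 in resident libraries, so it was at least 10.8-fold lower in SiglecFhi/CD101+ and at least 9.12-fold lower in Siglec-Fint/CD101- libraries (DESeq2 adjusted p 0.0355 and 0.0488). The edgeR call was Chil3, a chitinase-like secreted protein gene that shares sequence with Chil4 and is also made by monocytes and neutrophils: it was at 2143 and 1754 CPM in SiglecFhi/CD101+, 4453 and 1534 CPM in the Siglec-Fint/CD101- pair, and 501 to 708 CPM in resident libraries. It was higher in Siglec-Fint/CD101- than in resident libraries by a log2 fold change of 2.31 ± 0.38 (SE, edgeR adjusted p 0.0409), and leaving out any 1 of the 8 libraries but Siglec-Fint/CD101- replicate 2 ended that call, with log2 fold changes of 1.29 to 2.40. It also ended with library totals alone (adjusted p 0.157), limma-voom (0.169), a filter of 20 counts in 2 libraries (0.05003) and the compared groups alone (0.109). In SiglecFhi/CD101+ against resident libraries DESeq2 called Chil3 higher (adjusted p 0.0141). With Chil3 the summed level of the list was 2264 to 2336 CPM in SiglecFhi/CD101+, 2066 to 4797 CPM in Siglec-Fint/CD101- and 1105 to 1642 CPM in resident libraries. Without Chil3 the order turned, to 193 to 510 CPM in SiglecFhi/CD101+, 344 to 532 CPM in Siglec-Fint/CD101- and 603 to 953 CPM in resident libraries. Between 8 and 11 of the 22 genes had no count in a SiglecFhi/CD101+ library, 8 to 10 in a Siglec-Fint/CD101- library and 1 or 2 in a resident library.

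Of 21 interstitial macrophage genes, 17 were tested and none passed in edgeR. At an unadjusted edgeR p under 0.05, 1 was higher and 2 lower in SiglecFhi/CD101+ and 1 higher and 4 lower in Siglec-Fint/CD101- than in resident libraries. Of all tested genes, 3.65% were higher and 13.1% lower at that level in SiglecFhi/CD101+, and 1.90% higher and 13.8% lower in Siglec-Fint/CD101-. DESeq2 called 0 and 2 of the list lower at an adjusted p under 0.05, beside 5.03% and 4.67% of all tested genes. The median log2 fold change was -0.50 for SiglecFhi/CD101+ and -0.68 for Siglec-Fint/CD101- against resident libraries. With genes of no count set at their bound the last was -0.27. Both list medians lay above those of all tested genes, -0.72 and -0.997. Log2 fold changes were above 0 for 6 and below 0 for 11 genes in SiglecFhi/CD101+, and for 8 and 9 in Siglec-Fint/CD101-. Aif1 and Timd4, given next, had the 2 smallest edgeR p of the list in any comparison. Aif1, an actin-binding protein gene of macrophages, had 32 counts in 1 SiglecFhi/CD101+ library and none in the other, none in Siglec-Fint/CD101- libraries, and 171 to 593 in resident libraries, and was at least 31.0-fold lower in Siglec-Fint/CD101- than in resident libraries. Timd4, a phosphatidylserine receptor gene, had 7 and 1 counts in SiglecFhi/CD101+, 0 and 1 in the Siglec-Fint/CD101- pair, and 97 to 317 in resident libraries. The summed level of the list was 1976 to 2242 CPM in SiglecFhi/CD101+, 2612 to 3012 CPM in Siglec-Fint/CD101- and 1629 to 4410 CPM in resident libraries, and 6 to 8, 6 to 11 and 2 to 4 of its genes had no count in a library of these groups. Without Cbr2, a carbonyl reductase gene also known from airway club cells and at up to 2811 CPM in a resident library, the sums were 1112 to 1390 CPM in SiglecFhi/CD101+, 1280 to 1591 CPM in Siglec-Fint/CD101- and 1359 to 1600 CPM in resident libraries. The part of macrophages in the member values was not tested.

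Genes of lipid uptake and storage gave 21 tested genes of 26 and no edgeR call. At an unadjusted edgeR p under 0.05, 4 were lower in SiglecFhi/CD101+ and 3 in Siglec-Fint/CD101- than in resident libraries. Of all tested genes 13.1% and 13.8% were lower at that level, so the second of these counts was near the background share. DESeq2 called 2 and 0 of the list lower, beside 5.03% and 4.67% of all tested genes. Lipa, the lysosomal acid lipase gene, was at 5.30 and 0.610 CPM in SiglecFhi/CD101+, 128 and 71.4 CPM in the Siglec-Fint/CD101- pair, and 20.4 to 50.5 CPM in resident libraries. The SiglecFhi/CD101+ values lay below and the Siglec-Fint/CD101- values above all resident values. Abcg1, a cholesterol exporter gene, was at 0.530 and 7.93 CPM in SiglecFhi/CD101+, 22.5 and 8.07 CPM in the Siglec-Fint/CD101- pair, and 28.3 to 56.5 CPM in resident libraries. The median log2 fold change of the list was -0.80 for SiglecFhi/CD101+ and -0.20 for Siglec-Fint/CD101- against resident libraries. Over all tested genes the medians were -0.72 and -0.997.

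Markers of other lung cells that express some of the members were present in all groups. The 18 capillary endothelial genes, whose cells express Car4 and Fabp4, summed to 1274 to 1363 CPM in SiglecFhi/CD101+, 1125 to 1997 CPM in Siglec-Fint/CD101- and 433 to 1821 CPM in resident libraries. The 12 dendritic cell genes, whose cells can express C1q chains, summed to 127 to 149 CPM in SiglecFhi/CD101+, 294 to 394 CPM in Siglec-Fint/CD101- and 325 to 676 CPM in resident libraries, with 7 of 11 tested genes below the resident range in both SiglecFhi/CD101+ libraries (27.4% of all tested genes were) and 3 of 11 in both Siglec-Fint/CD101- libraries (29.3%). The part of these cells in the member values was not tested.

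**Figure D4:**
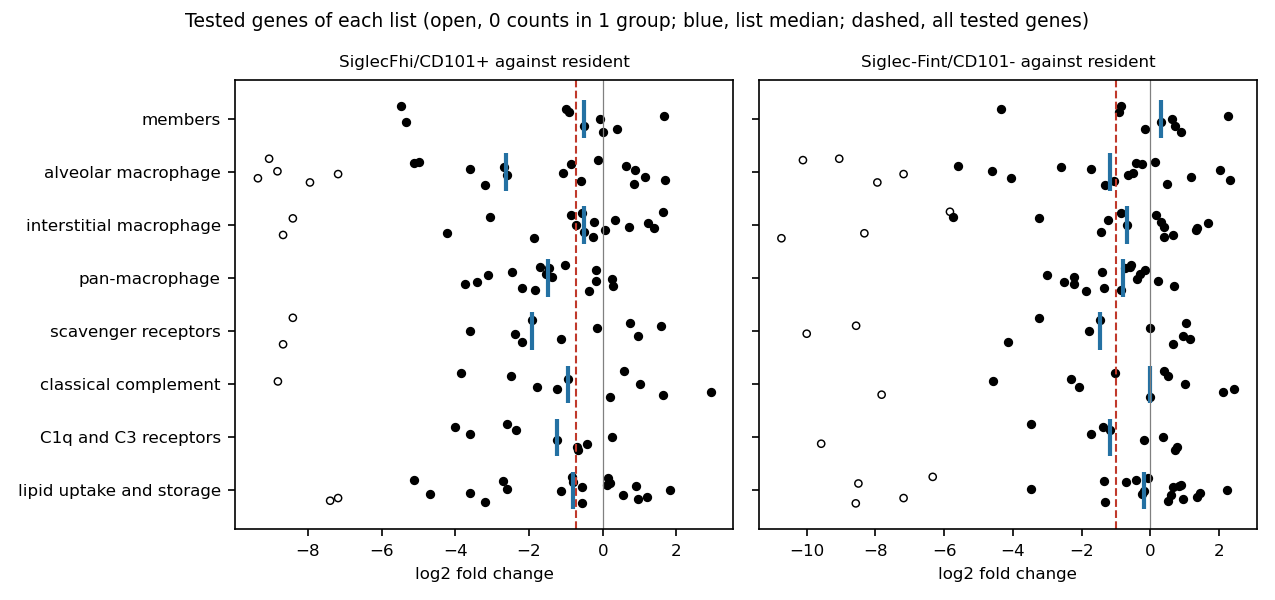
Log2 fold change (edgeR) of each tested gene of the members, the macrophage lists and the pathway lists, for SiglecFhi/CD101+ against resident and Siglec-Fint/CD101- against resident, with list medians in blue and the median of all tested genes dashed (open points, genes with no count in 1 group). The pan-macrophage median is -1.50 and the members' median is -0.50 for SiglecFhi/CD101+, and -0.80 and 0.30 for Siglec-Fint/CD101-.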

How the data were processed

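RNA of sorted eosinophils was sequenced in 8 CEL-Seq libraries on an Illumina instrument, per the labels' protocols. For each library the authors deposited whole-number counts by Ensembl gene, not normalized. Tools named in the submitters' processing notes are FastQC 0.11.5 and Trim Galore with cutadapt 1.10, TopHat2 2.1.0, Bowtie2 2.2.6, HTSeq 0.6.1 and DESeq2 1.28.0. Not given in the sources used here are build, annotation, strand and the collapsing of molecular identifiers, so amplified copies may add to the spread, and counts may include an overlapping gene (Mir511 with Mrc1). Symbols and positions came from GENCODE M21 (GRCm38), which matched 54409 of 54446 identifiers and left 37 without a symbol.

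Groups came from the sample titles alone; the tables also carry letters (I on SiglecFhi/CD101+ tables, R on those of Siglec-Fint/CD101-, N on resident ones) that the titles do not explain. Counts were fitted in R 4.3.3 with edgeR 4.0.16 (TMM, filterByExpr, group means over 8 libraries, robust quasi-likelihood, two-sided, Benjamini-Hochberg adjusted p under 0.05 over 11828 genes). The common biological coefficient of variation was 1.12. The procedure was tested on simulated data. Alternatives were RLE, upper-quartile and no factors, mitochondrial genes left out, DESeq2 1.42.0, limma-voom (limma 3.58.1), other filters, fewer samples, leaving out each library and a replicate block. The members and lists were chosen with earlier results of these data known. All 9 members are named, with up to 4 genes of each other list with the smallest p, up to 3 of the highest mean CPM for cell-type lists, and the 3 genes most alike in profile. One gene that this rule picked is not reported here. Itgam, Epx, Il5ra and Cbr2 were named after their values were seen.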

Additional observations from a re-analysis of the deposited data

Results flagged for a closer look

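Cfp, the properdin gene, and Lipa, the lysosomal acid lipase gene, lay on opposite sides of the resident mean in the subsets: every SiglecFhi/CD101+ library was below it and every Siglec-Fint/CD101- library above it. The log2 fold change of SiglecFhi/CD101+ against Siglec-Fint/CD101- libraries was -3.02 for Cfp and -5.05 for Lipa, and in edgeR neither passed (adjusted p 0.243 and 0.176), while in DESeq2 Lipa passed (adjusted p 0.000178). The opposite position was noted from the values and was not tested in itself.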

How the results depend on the processing

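Counts of genes called moved with the processing. For SiglecFhi/CD101+ against resident libraries 3 genes were called, against 7 with library totals alone, 907 with DESeq2, 370 without a filter and 1 with the compared groups alone, and 1 to 133 when 1 library was left out (131 and 133 without Siglec-Fint/CD101- replicate 1 or 2, and 1, 6 and 5 without SiglecFhi/CD101+ replicate 1, replicate 2 or resident replicate 5). For Siglec-Fint/CD101- against resident libraries 7 were called, against 3 with library totals alone, 653 with DESeq2, 2 with limma-voom, 136 without a filter, 1 with at least 20 counts in 2 libraries and 0 with the compared groups alone, and 0 to 9 with 1 library left out. For SiglecFhi/CD101+ against Siglec-Fint/CD101- libraries 1 was called, against 1270 with DESeq2, 0 with limma-voom, 85 without a filter and 0 with the compared groups alone, and 0 to 2 with 1 library left out. The replicate block called 4 genes there, and same-numbered subset libraries did not deviate together (r = 0.0069 over 11828 genes), so the numbers were not taken to pair the samples; it made none of the 8 members it tested pass. The cause of these moves was not tested.

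Of the members' log2 fold changes and alternatives, 413 kept direction and side of the threshold, 43 turned direction and 10 came to pass. The last were C1qc in SiglecFhi/CD101+ against resident libraries with DESeq2, without a filter (adjusted p 0.000323) or without Siglec-Fint/CD101- replicate 1 (0.0463) or 2 (0.0458), Mrc1 there with DESeq2 or without Siglec-Fint/CD101- replicate 1 (0.0499) or 2 (0.0484), and against Siglec-Fint/CD101- libraries C1qc with DESeq2 or without a filter (0.00109) and Mrc1 with DESeq2. C1qc stayed between -6.10 and -4.79 for SiglecFhi/CD101+ against resident in all alternatives, with adjusted p of 7.42e-05 to 0.328, and Mrc1 between -6.15 and -4.97, with 0.000404 to 0.394. With mitochondrial genes left out these were -5.24 and -5.39.

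With 1 library left out, log2 fold changes that turned direction ranged as follows. For SiglecFhi/CD101+ against resident libraries they were -1.83 to 1.103 for C1qa, -0.22 to 0.21 for Car4, -7.20 to 2.64 for Fabp4 and -0.36 to 0.19 for Apoe. For Siglec-Fint/CD101- against resident libraries they were -0.85 to 0.25 for C1qa, -1.03 to 1.44 for C1qb, -0.36 to 0.74 for C1qc, -0.79 to 1.30 for Car4 and -0.54 to 1.57 for Apoe. For SiglecFhi/CD101+ against Siglec-Fint/CD101- libraries they were -1.64 to 1.30 for C1qa, -2.04 to 0.43 for C1qb, -5.29 to 8.58 for Marco, -1.48 to 0.61 for Car4, -0.77 to 1.45 for Lpl, -9.40 to 1.31 for Fabp4, -1.66 to 0.46 for Apoe, -4.54 to 2.42 for Itgax and -1.28 to 0.30 for Chil3. Values of Marco and Fabp4 past 5 rest on a group with no count and are no measure of size.

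Other settings turned these. RLE factors gave 0.23 (C1qa) for Siglec-Fint/CD101- and 0.38 (Car4) for SiglecFhi/CD101+ against resident libraries, and DESeq2 gave the same values. Upper-quartile factors gave 0.12 (C1qa), 0.13 (Car4), and -0.025 for Lpl between the subsets. Library totals alone gave -0.60 (Apoe) and -0.56 (C1qa) for SiglecFhi/CD101+ against resident, -0.45 (C1qc), -0.11 (Car4) and -0.29 (Cfp) for Siglec-Fint/CD101- against resident, and 0.29 for Fabp4 between the subsets. limma-voom gave -0.0038 (Apoe), -0.031 (C1qa) and 0.0024 (Car4), no filter gave -0.038 (Apoe) and -0.015 (Lpl between the subsets), leaving out mitochondrial genes gave 0.020 (Car4), and the filter of 20 counts gave 0.011 (Car4). The members' median log2 fold change was -0.96 to -0.01 for SiglecFhi/CD101+ and -0.45 to 0.69 for Siglec-Fint/CD101- against resident libraries under the 4 other scalings. A count of 3 stood at up to 2.18 CPM in subset libraries, so levels such as the 2 lowest resident values of Fabp4 (0.167 and 1.05 CPM) could not be resolved there.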
